A study of Mus musculus with 7 samples.

Results

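The cyclin-dependent kinase inhibitor family is described here across all 7 libraries of a mouse kidney RNA sequencing series. Its members were taken as the rows of the gene table with the symbols Cdkn1a, Cdkn1b, Cdkn1c, Cdkn2a, Cdkn2b, Cdkn2c and Cdkn2d. All 7 members were among the 17537 genes listed, and 6 of the 7 passed the filter on low values, as did 13976 genes in all; Cdkn2a did not pass. The mice were male C57BL/6 animals of 8 to 10 weeks at the start. The controls (C, replicates 2, 8 and 9) had received sodium citrate, and the diabetic mice had received streptozotocin, a toxin of the pancreatic beta cell, at 60 mg/kg by injection on 5 days. DM-22 (n = 2) had been hyperglycemic for 22 weeks without treatment, and DM+SGLT2i (n = 2) had also been given dapagliflozin, an inhibitor of the renal glucose transporter SGLT2, at 25 mg/kg in drinking water for 6 weeks from week 16. RNA came from whole renal tissue, in which fewer cells of a type and less RNA per cell cannot be told apart.

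Cyclin-dependent kinase inhibitors bind the kinases that drive the cell cycle. The Cip/Kip members, p21 (Cdkn1a), p27 (Cdkn1b) and p57 (Cdkn1c), bind a broad range of cyclin-kinase complexes, including those of Cdk2. The INK4 members, p16 (Cdkn2a), p15 (Cdkn2b), p18 (Cdkn2c) and p19INK4d (Cdkn2d), bind Cdk4 and Cdk6 and thereby keep the retinoblastoma protein active. Cdkn1a is a classic target of the tumour suppressor p53. Together with Cdkn2a it is widely used as a marker of cellular senescence, a lasting arrest of the cell cycle. In the kidney, Cdkn1c marks the mature podocyte, the filtering epithelial cell of the glomerulus.

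Promoter sequences were available from RefSeq (build GRCm38.p6) for 6 of the 7 members, as 250 bases before and 50 bases after each start. Those of Cdkn1a and Cdkn2a are shown because each of these genes has a pair of starts that a single value per gene does not separate. Cdkn2c also has a pair of starts, whose sequences are not shown. The sequence of Cdkn2b is shown as that of the next gene to Cdkn2a. The upstream start of Cdkn2a leads to p19ARF, a protein unrelated to the kinase inhibitors that stabilizes p53, and the downstream start leads to p16. All are given 5′ to 3′ on the strand of the gene, with GC boxes (GGGCGG, or CCGCCC for the other strand) in capitals.
Cdkn1a, upstream start, chr17:29090729-29091028, plus strand: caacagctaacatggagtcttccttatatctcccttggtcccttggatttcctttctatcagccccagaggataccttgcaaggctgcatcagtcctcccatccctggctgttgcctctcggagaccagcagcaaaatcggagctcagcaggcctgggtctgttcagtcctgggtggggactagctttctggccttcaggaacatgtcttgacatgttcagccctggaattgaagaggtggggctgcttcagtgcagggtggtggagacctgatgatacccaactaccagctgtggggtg
Cdkn1a, downstream start, chr17:29093519-29093818, plus strand: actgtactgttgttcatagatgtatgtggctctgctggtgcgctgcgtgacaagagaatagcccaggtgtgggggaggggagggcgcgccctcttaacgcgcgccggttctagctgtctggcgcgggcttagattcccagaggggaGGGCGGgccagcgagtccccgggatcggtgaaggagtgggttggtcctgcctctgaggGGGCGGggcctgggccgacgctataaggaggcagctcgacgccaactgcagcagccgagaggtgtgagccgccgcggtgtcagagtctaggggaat
Cdkn2a, upstream start, chr4:89294570-89294869, minus strand: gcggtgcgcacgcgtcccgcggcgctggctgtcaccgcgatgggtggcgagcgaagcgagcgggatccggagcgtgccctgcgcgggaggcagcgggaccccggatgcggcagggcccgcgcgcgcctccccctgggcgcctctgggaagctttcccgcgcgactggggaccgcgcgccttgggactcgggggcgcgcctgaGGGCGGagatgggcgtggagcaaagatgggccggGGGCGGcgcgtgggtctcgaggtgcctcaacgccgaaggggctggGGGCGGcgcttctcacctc
Cdkn2a, downstream start, chr4:89282143-89282442, minus strand: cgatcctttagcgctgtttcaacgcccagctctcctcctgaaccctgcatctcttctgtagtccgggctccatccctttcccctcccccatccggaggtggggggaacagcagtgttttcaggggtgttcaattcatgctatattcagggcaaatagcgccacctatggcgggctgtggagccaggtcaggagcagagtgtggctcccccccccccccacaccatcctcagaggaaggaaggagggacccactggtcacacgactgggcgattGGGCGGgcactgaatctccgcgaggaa
Cdkn2b, chr4:89310983-89311282, minus strand: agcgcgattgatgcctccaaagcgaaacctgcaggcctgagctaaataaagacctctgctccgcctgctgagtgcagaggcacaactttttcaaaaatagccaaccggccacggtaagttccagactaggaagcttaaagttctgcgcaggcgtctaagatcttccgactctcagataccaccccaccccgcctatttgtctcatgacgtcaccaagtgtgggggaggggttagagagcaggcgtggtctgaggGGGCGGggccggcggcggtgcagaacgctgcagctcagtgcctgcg
The upstream window of Cdkn1a held 0 GC boxes and 2 CpG dinucleotides, and its downstream window held 2 GC boxes and 23 CpG. The upstream window of Cdkn2a held 3 GC boxes and 45 CpG, a number that 1.93% of all 32851 promoter windows reached, and its downstream window held 1 GC box and 12 CpG. The window of Cdkn2b held 1 GC box and 18 CpG. A GC box was found in 35.7% of all windows. None of these 5 windows held TATAAA or its reverse complement TTTATA, which 13.6% of all windows held.

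Several libraries stood apart before any test of the family. C replicate 2 had a summed level of 10 tubular injury genes of 6477 CPM (reads per library of equal, normalized size), against 877 to 1052 CPM in the other 2 controls and 1989 to 3270 CPM in the 4 diabetic libraries. Its 6 fibroblast markers summed to 708 CPM, against 188 and 249 CPM in the other controls. DM-22 replicate 1 had 12921 CPM of 4 thick ascending limb markers, against 3294 CPM in DM-22 replicate 2. Immediate early genes summed to 3620 CPM in C replicate 9 and to 126 to 346 CPM in the others. The 4 adipose markers summed to 810 CPM in DM+SGLT2i replicate 1 and to at most 24.0 CPM elsewhere. The 5 urothelial markers summed to 136 CPM in that library, 58.1 CPM in C replicate 2 and 1.94 to 19.9 CPM elsewhere, and the 5 B and plasma cell markers to 126 CPM in C replicate 9 and 13.3 to 62.0 CPM elsewhere. The 8 proximal tubule markers, which define the main cell type of the kidney cortex, summed to 9401 to 23128 CPM. Over all libraries the distal convoluted tubule markers summed to 356 to 1602 CPM, collecting duct to 629 to 1259 CPM, endothelium to 411 to 471 CPM, macrophage to 146 to 556 CPM and T cell to 3.44 to 10.2 CPM. Of 6 adrenal markers 3 were listed, at 1.45 to 3.61 CPM in sum, and of 5 red blood cell markers 1 was listed, at 4.42 to 32.8 CPM. Comparisons of the members and of the gene lists with C are therefore given with all 3 controls and again without C replicate 2, and those of single genes outside the family mostly with all 3 controls. The depth was 46456125 to 56541594 reads on listed genes per library, so that 1 read was worth 0.0180 to 0.0231 CPM.

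Cdkn1a (ENSMUSG00000023067, chr17:29090976-29100727, plus strand), which encodes p21, had the widest range of the 6 members tested on the log2(CPM + 0.5) scale, although the ratio of highest to lowest CPM was 26.6 for Cdkn1a and 33.4 for Cdkn2b. Its level was 72.7, 4.63 and 5.36 CPM in C replicates 2, 8 and 9, 52.6 and 123 CPM in DM-22, and 78.6 and 77.3 CPM in DM+SGLT2i. C replicate 2 lay within the range of the diabetic libraries, whereas C replicates 8 and 9 lay below all 4 of them. The means were 27.6 ± 39.1 CPM in C (SD, n = 3), 87.9 ± 49.9 CPM in DM-22 (SD, n = 2) and 78.0 ± 0.901 CPM in DM+SGLT2i (SD, n = 2). With all 3 controls the log2 fold change was 2.64 (SE 1.13) in DM-22 and 2.59 (SE 1.13) in DM+SGLT2i, and neither passed the test (limma, adjusted p = 0.804 and 0.9997). Leaving out another control instead lowered these values, to 1.97 and 1.92 without C replicate 8 and to 2.06 and 2.02 without C replicate 9. Without C replicate 2 the difference in DM+SGLT2i was 3.84 (SE 0.376) and passed (limma, adjusted p = 0.0490), and that in DM-22 was 3.89 (SE 0.376) and did not (limma, adjusted p = 0.0781). The 4 diabetic libraries taken as 1 group were higher by 3.86 (SE 0.326, limma, adjusted p = 0.0449) without C replicate 2 and by 2.62 (SE 0.948, limma, adjusted p = 0.988) with it. C replicate 2 was the control with the highest Cdkn1a, so leaving it out in itself raised the difference and lowered the SE. Both calls lay close to the threshold of 0.05. In the fit without C replicate 2, they were lost when no filter on low values was applied (adjusted p = 0.0534 in DM+SGLT2i and 0.0564 in all diabetic libraries) and when recovered reads were fitted with voom (adjusted p = 0.0865 and 0.0594).

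Cell type markers also differed between these libraries. Fibroblast markers summed to 558 and 426 CPM in DM+SGLT2i and 221 and 150 CPM in DM-22, against 188 and 249 CPM in C replicates 8 and 9. Macrophage markers summed to 279 and 328 CPM in DM+SGLT2i and 296 and 164 CPM in DM-22, against 146 and 147 CPM. Proximal tubule markers summed to 14736 and 14948 CPM in DM+SGLT2i and 10473 and 20644 CPM in DM-22, against 23128 and 20725 CPM. C replicate 2, the control with high Cdkn1a, had the highest fibroblast and macrophage sums of all libraries, at 708 and 556 CPM. Its proximal tubule sum, 9401 CPM, was the lowest of all. The part of these cell types in the values of Cdkn1a was not tested.

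The value in C replicate 2 was 14.5 times the mean of the other 2 controls, and the share of this excess that goes with its tubular injury genes was not tested. Between treated and untreated diabetes the log2 difference of Cdkn1a was -0.05, with a 95% interval from -3.02 to 2.93 with all 3 controls and from -0.97 to 0.88 without C replicate 2. These intervals leave room for a sizeable difference in either direction. Of the 13976 genes tested, 0.365% had a range over the 7 libraries at least as wide as the 4.59 log2 units of Cdkn1a.

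**Figure D1:**
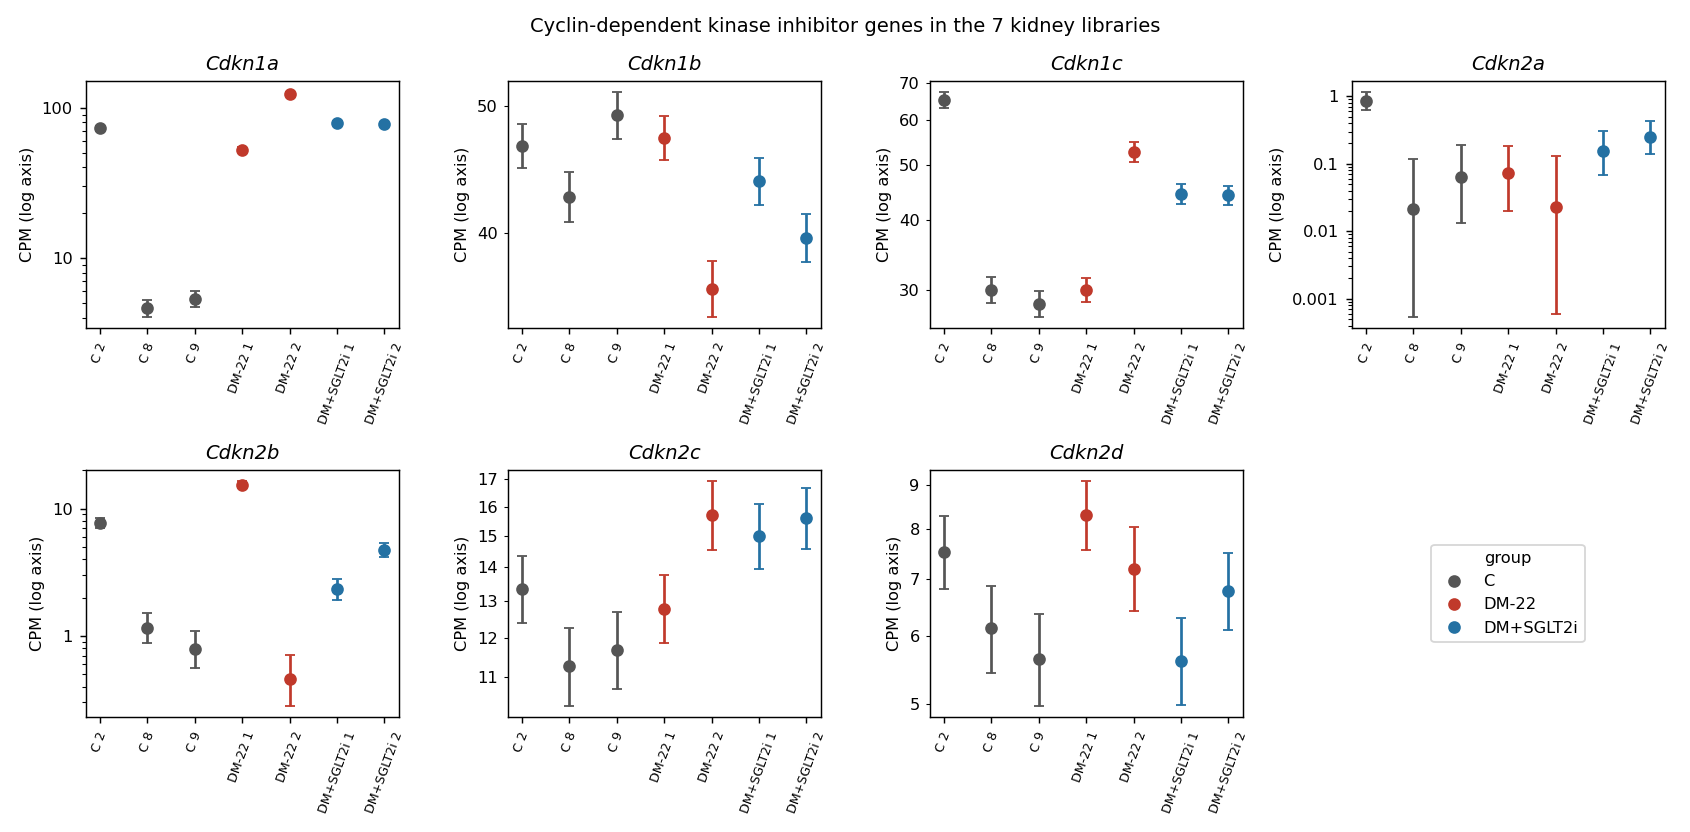
Level of each member in CPM (log axis, a different scale in each panel) in every library, with points coloured by group and bars for the 95% exact Poisson interval, which covers counting error only. Cdkn1a sits at 4.63 and 5.36 CPM in C replicates 8 and 9 and between 52.6 and 123 CPM in the other 5 libraries.

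Cdkn1b (chr6:134920401-134925513), whose protein p27 holds resting cells out of the cycle, varied least. It was at 46.6, 42.6 and 49.2 CPM in C, 47.2 and 36.2 CPM in DM-22, and 43.8 and 39.6 CPM in DM+SGLT2i. The groups overlapped. The log2 fold change was -0.15 (95% interval -0.53 to 0.23) in DM-22 and -0.14 (95% interval -0.52 to 0.24) in DM+SGLT2i, and neither passed (limma, adjusted p = 0.828 and 0.9997). After removal of C replicate 2 the values were -0.14 and -0.13 (limma, adjusted p = 0.613 and 0.705).

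Cdkn1c (chr7:143458339-143461050), the p57 gene, was at 65.1, 30.0 and 28.4 CPM in C, 30.0 and 52.7 CPM in DM-22, and 44.4 and 44.2 CPM in DM+SGLT2i. C replicate 2 was the highest library and DM-22 replicate 1 lay among the lower controls. The log2 fold change was 0.06 (SE 0.404) in DM-22 and 0.21 (SE 0.404) in DM+SGLT2i. After removal of C replicate 2 it was 0.44 (SE 0.258, limma, adjusted p = 0.328) and 0.59 (SE 0.258, limma, adjusted p = 0.299). The 8 podocyte markers summed to 731, 663 and 594 CPM in C replicates 2, 8 and 9, to 413 and 989 CPM in DM-22 replicates 1 and 2, and to 777 and 730 CPM in DM+SGLT2i. Within DM-22 the library with more podocyte marker RNA was also the one with more Cdkn1c. Both DM+SGLT2i libraries were above C replicates 8 and 9 on both measures. Some other pairs of libraries did not share an order. C replicate 2 had more Cdkn1c than DM-22 replicate 2 with a lower podocyte sum. C replicate 8 and DM-22 replicate 1 both had 30.0 CPM of Cdkn1c, at podocyte sums of 663 and 413 CPM. The part of the podocyte in the values of Cdkn1c was not tested.

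Cdkn2b (chr4:89306299-89311039), which encodes p15, an inhibitor known to be induced by transforming growth factor beta, differed most within a group among the 6 members tested. Its level was 7.73, 1.16 and 0.791 CPM in C, 15.4 and 0.462 CPM in DM-22, and 2.33 and 4.73 CPM in DM+SGLT2i. The highest and the lowest of the 7 values were thus the DM-22 pair, which differed 33.4 times. The log2 fold change was 0.59 (SE 1.29) in DM-22 and 0.56 (SE 1.29) in DM+SGLT2i (limma, adjusted p = 0.919 and 0.9997). After removal of C replicate 2 these were 1.42 and 1.40 (SE 1.23, limma, adjusted p = 0.494 and 0.578). In DM-22 with all 3 controls it became -1.43 without DM-22 replicate 1 and 2.61 without DM-22 replicate 2, so that its direction rested on 1 library. Thick ascending limb markers summed to 6192, 4013 and 3542 CPM in C, 12921 and 3294 CPM in DM-22, and 4696 and 7056 CPM in DM+SGLT2i. The highest and the lowest library were the same as for Cdkn2b, and the part of this segment in the values of Cdkn2b was not tested.

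The 5 tested genes closest to Cdkn2b in pattern, by the root mean square difference of log2(CPM + 0.5) over the 7 libraries after removal of each mean, were Muc20 (0.214), Aldoc (0.245), Mfrp (0.269), Proser2 (0.282) and Pcsk6 (0.284). The spread of Cdkn2b around its own mean on that scale was 1.38. For Cdkn1a, with a spread of 1.77, they were Phlda3 (0.763), Eda2r (0.869), Nefl (0.918), Grem1 (0.931) and Depp1 (0.976). For Cdkn1c, with a spread of 0.423, they were Pamr1 (0.0795), Cyp2s1 (0.0891), Cyp2d26 (0.0908), H2-Q6 (0.110) and Cyb5rl (0.113). Cdkn1a thus had no gene as close to it, relative to its spread, as the other 2 members had. The measure counts the size of the changes as well as their shape, and only 0.365% of genes had a range as wide as that of Cdkn1a. It therefore does not show that few genes follow Cdkn1a from library to library. No other member of the family was among the 5 closest to Cdkn1a, Cdkn1c or Cdkn2b.

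**Figure D2:**
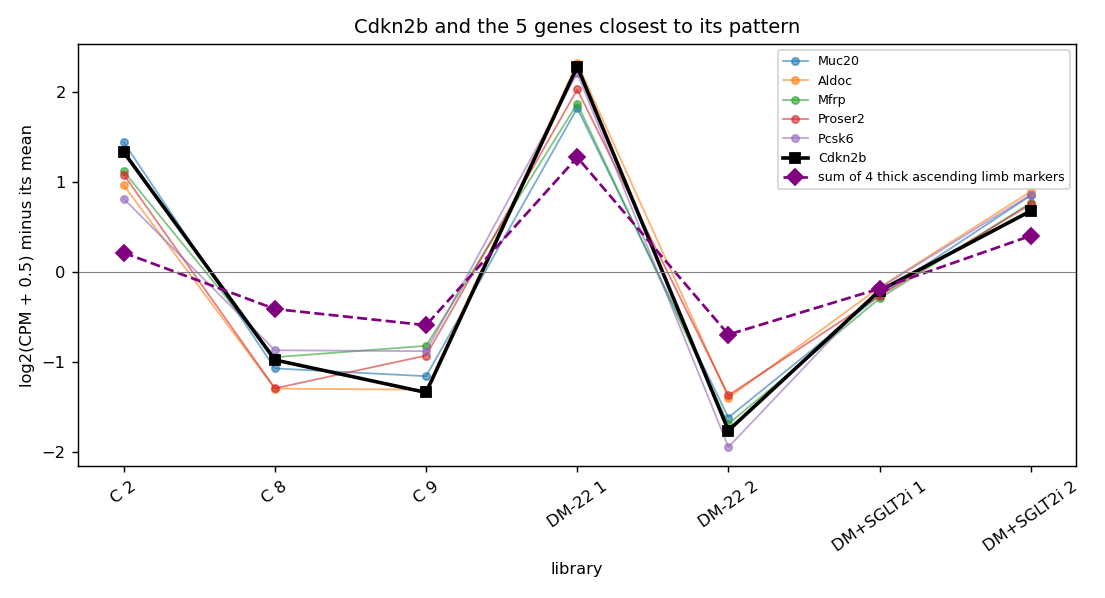
Level of Cdkn2b (black squares), of the 5 genes closest to its pattern and of the sum of 4 thick ascending limb markers (purple, dashed) in each library, as log2(CPM + 0.5) minus the mean over the 7 libraries. DM-22 replicate 1 is the highest point of every line, and DM-22 replicate 2 is the lowest point of Cdkn2b and of the marker sum.

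Cdkn2a (chr4:89274471-89294653) was near the limit of detection in 6 of 7 libraries. It had 47 reads in C replicate 2 (0.861 CPM, 95% exact Poisson interval 0.633 to 1.15), 1 read in C replicate 8 and 3 reads in C replicate 9. It had 4 and 1 reads in DM-22, and 8 and 14 reads in DM+SGLT2i (0.157 CPM, interval 0.0676 to 0.308, and 0.253 CPM, interval 0.138 to 0.424). These intervals cover counting error only. Both DM+SGLT2i libraries were above both DM-22 libraries and below C replicate 2, and the counting intervals of DM+SGLT2i replicate 1 and DM-22 replicate 1 overlapped. The share of all genes whose diabetic groups separated in this way is not given here. When all 17537 genes were fitted, the log2 fold change of Cdkn2a was -0.43 (SE 0.406, limma, adjusted p = 0.843) in DM-22 and -0.07 (SE 0.406, limma, adjusted p = 0.9998) in DM+SGLT2i. Without C replicate 2 these values were 0.01 and 0.38 (SE 0.141, limma, adjusted p = 0.968 and 0.276). The reads cannot be assigned to either of the starts shown above.

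Cdkn2c (chr4:109660876-109667189), the p18 gene, was at 13.3, 11.3 and 11.7 CPM in C, 12.8 and 15.7 CPM in DM-22, and 15.0 and 15.6 CPM in DM+SGLT2i. Both DM+SGLT2i libraries were above all 3 controls, and DM-22 replicate 1 lay among the controls. The share of all genes with DM+SGLT2i above C in this way is not given here. The log2 fold change was 0.33 (95% interval -0.06 to 0.72) in DM+SGLT2i and 0.22 (95% interval -0.17 to 0.61) in DM-22 (limma, adjusted p = 0.9997 and 0.804). Against C replicates 8 and 9 alone it was 0.40 in DM+SGLT2i (95% interval 0.03 to 0.77, limma, adjusted p = 0.252) and 0.29 in DM-22 (95% interval -0.08 to 0.67, limma, adjusted p = 0.278).

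Cdkn2d (chr9:21288410-21291407), the p19INK4d gene, was at 7.51, 6.13 and 5.64 CPM in C, 8.30 and 7.19 CPM in DM-22, and 5.62 and 6.77 CPM in DM+SGLT2i. Against C it differed by 0.26 in DM-22 and -0.05 in DM+SGLT2i on the log2 scale (limma, adjusted p = 0.804 and 0.9997), and without C replicate 2 by 0.37 and 0.06 (limma, adjusted p = 0.253 and 0.872). It was the only tested member for which the 2 diabetic groups did not overlap, with DM+SGLT2i lower. With 2 libraries per group such a separation arises easily, and its share over all genes is not given here. The difference between the diabetic groups was -0.30 on the log2 scale (95% interval -0.83 to 0.22) and did not pass the test (limma, adjusted p = 0.881 with all 3 controls and 0.507 without C replicate 2).

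Over the 6 members tested, 0 were called in any of the comparisons with all 3 controls, against 0% of all genes in DM-22 against C, DM+SGLT2i against C, DM+SGLT2i against DM-22 and all diabetic against C alike. At an unadjusted p under 0.05, 0 members passed in DM-22 against C (4.47% of all genes), 0 in DM+SGLT2i against C (1.08%), 0 in DM+SGLT2i against DM-22 (3.91%) and 1, Cdkn1a, in all diabetic against C (2.04%). In the fit without C replicate 2, 0 members were called in DM-22 against C (0.0143% of all genes), 1 in DM+SGLT2i against C (0.122%), 0 in DM+SGLT2i against DM-22 (0%) and 1 in all diabetic against C (0.2%). At an unadjusted p under 0.05 these counts were 1 (25.2%), 2 (17.9%), 0 (10.8%) and 2 (24.8%). The comparisons share their control libraries. No member had all 4 diabetic libraries above all 3 controls (1.31% of genes did) or below them (1.38%). After removal of C replicate 2, Cdkn1a and Cdkn2c lay above in all 4 (15.1% of genes did) and 0 members lay below (20.8%). The median log2 fold change of the 6 members was 0.24 in DM-22 and 0.27 in DM+SGLT2i, beside 0.0045 and -0.01 over all genes. These medians were 0.40 and 0.50 without C replicate 2, beside 0.0056 and -0.02 over all genes.

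**Figure D3:**
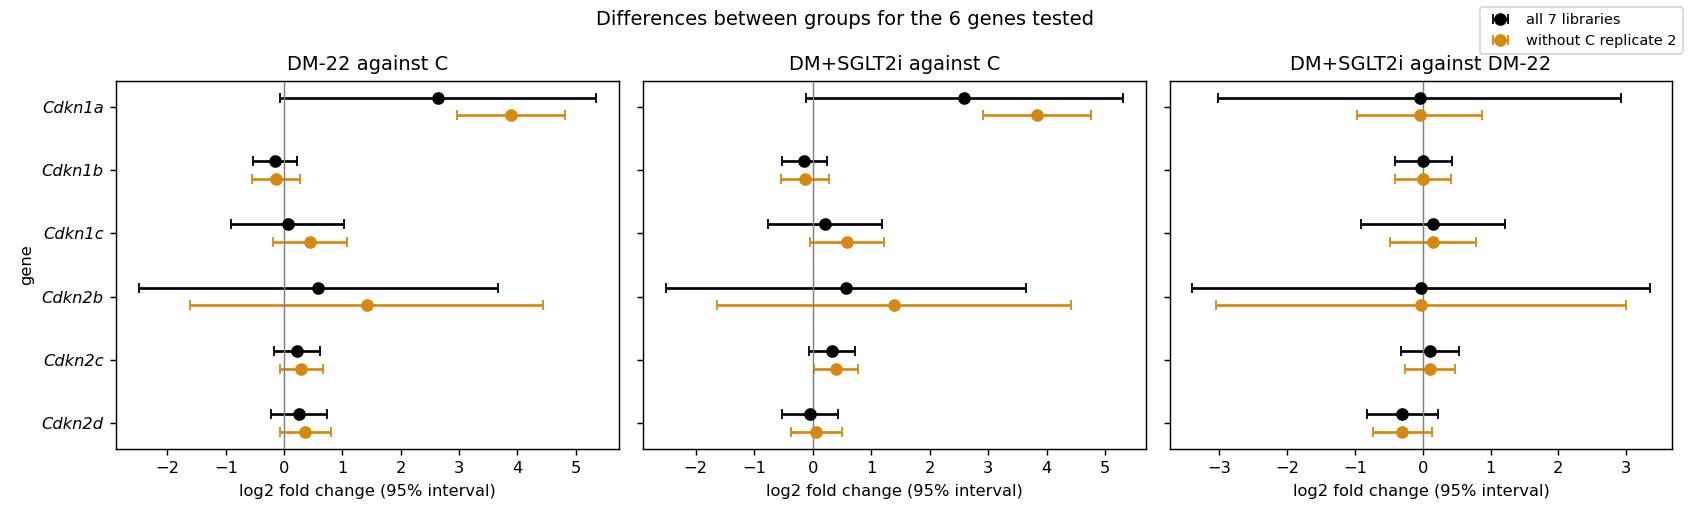
Log2 fold change with its 95% interval for the 6 members tested, with all 7 libraries (black) and without C replicate 2 (orange), in 3 comparisons. Cdkn1a moves from 2.64 to 3.89 in DM-22 and its interval narrows, while Cdkn2b keeps an interval from -2.49 to 3.67 in DM-22 with all libraries.

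To compare levels between genes, CPM were divided by the length of the exons of each gene in kb. On this scale Cdkn1c was highest on average (20.7 ± 6.73 CPM per kb, SD, n = 7), followed by Cdkn1a (16.7 ± 11.996), Cdkn1b (9.58 ± 1.0004), Cdkn2c (5.07 ± 0.686), Cdkn2d (4.28 ± 0.639), Cdkn2b (3.35 ± 3.89) and Cdkn2a (0.177 ± 0.256). The order of the first 2 differed by group: Cdkn1c was above Cdkn1a in all 3 controls, and Cdkn1a was above Cdkn1c in all 4 diabetic libraries. In DM-22 replicate 1 and both DM+SGLT2i libraries these levels were close, at 14.8 against 14.7, 22.1 against 21.8 and 21.8 against 21.7 CPM per kb. Cdkn1a was above Cdkn1b in 5 of 7 libraries, the exceptions being C replicates 8 and 9, where it ranked at place 5 of 7. Cdkn1b was above Cdkn2c, and Cdkn2b above Cdkn2a, in 7 of 7 libraries. The sum over the family was 34.3 and 34.8 CPM per kb in C replicates 8 and 9, 78.7 in C replicate 2, 61.1 and 79.2 in DM-22, and 64.5 and 65.9 in DM+SGLT2i. Cdkn1a made up 3.80% and 4.34% of it in C replicates 8 and 9 and 24.2% to 43.8% in the other 5 libraries. Without Cdkn1a the sum was 33.0 and 33.3 CPM per kb in C replicates 8 and 9, 42.4 to 46.3 in the diabetic libraries and 58.2 in C replicate 2.

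**Figure D4:**
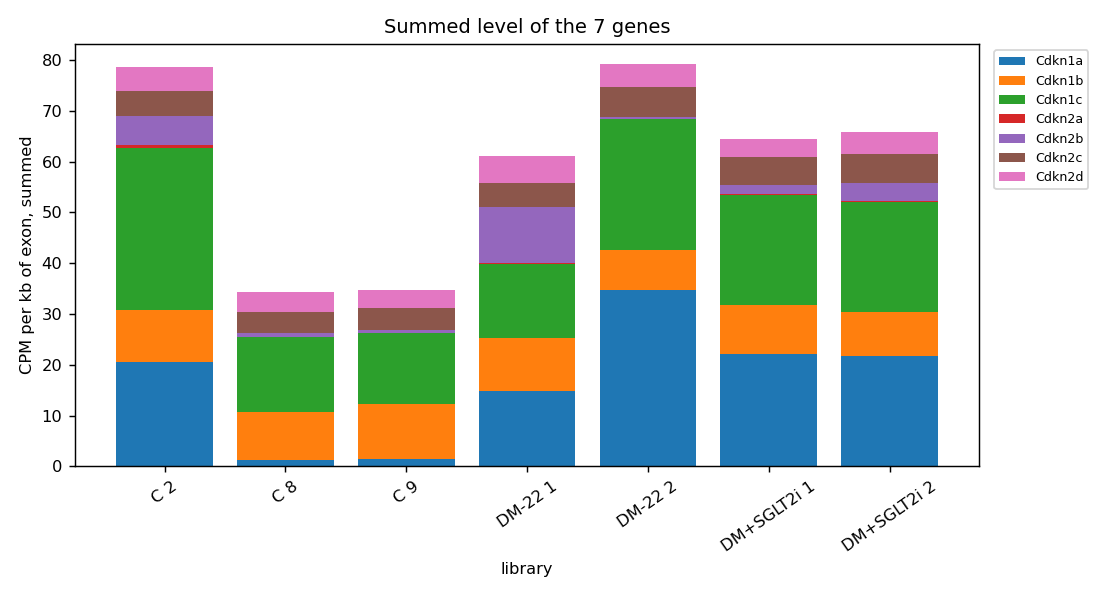
Level of the 7 members in CPM per kb of exon, stacked for each library. The bars of C replicates 8 and 9 reach 34.3 and 34.8, those of the other 5 libraries 61.1 to 79.2, and the lowest segment, Cdkn1a, differs most between them.

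The neighbours of the members on their chromosomes gave further values. Before and after refer here to chromosome coordinates, not to the direction of transcription. Trp53cor1, a long noncoding RNA 11.8 kb before Cdkn1a, was listed at 0.696, 0.0211 and 0.0855 CPM in C, 0.198 and 0.856 CPM in DM-22, and 1.29 and 0.777 CPM in DM+SGLT2i, and did not pass the filter. As for Cdkn1a, C replicates 8 and 9 were the 2 lowest libraries. Cpne5, 54.8 kb after Cdkn1a, was under 0.55 CPM in every library. Mtap, which encodes a methionine salvage enzyme and lies 93.4 kb before Cdkn2a, was at 37.8 to 48.8 CPM, and differed from C by 0.06 on the log2 scale in DM-22 (limma, adjusted p = 0.933). Cdkn2b itself lies 11.6 kb after Cdkn2a. Kcnq1, a potassium channel gene next to Cdkn1c in an imprinted cluster, differed from C by 0.41 on the log2 scale in DM-22 and by 0.49 in DM+SGLT2i (limma, adjusted p = 0.820 and 0.9997), and Slc22a18 on its other side by 0.20 and -0.16. Lockd, a long noncoding RNA 3.58 kb after Cdkn1b, differed by 0.40 and 0.09, and 2810454H06Rik on the other side was under 0.38 CPM throughout. Beside Cdkn2c, 9630013D21Rik differed by -0.44 and -0.74 and Faf1 by 0.27 and -0.07. Beside Cdkn2d, Kri1 differed by -0.14 and -0.0040 and Ap1m2 by 0.71 and 0.29. Dmrta1, 368 kb after Cdkn2b, was under 0.41 CPM throughout.

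The partners and targets of the family were read from lists of genes, and no gene of any of the 13 other lists was called by limma with all 3 controls. Of the 11 tested cyclins and kinases, 4 were higher and 7 lower in DM-22, with a median of -0.13, and 7 were higher and 4 lower in DM+SGLT2i (median 0.17). These counts depended on C replicate 2: without it 7 were higher and 4 lower in DM-22 (median 0.16), and 8 and 3 in DM+SGLT2i (median 0.25). Cdk2, the main target kinase of the Cip/Kip members, was at 9.84, 10.9 and 11.1 CPM in C, 7.58 and 6.47 CPM in DM-22, and 10.3 and 10.7 CPM in DM+SGLT2i. Its log2 fold change was -0.57 in DM-22 (limma, unadjusted p = 0.0101, adjusted p = 0.804) and -0.01 in DM+SGLT2i (limma, adjusted p = 0.9997). Both DM-22 libraries were below all others, and the share of all genes with this separation is not given here. Cdk4 and Cdk6, the targets of the INK4 members, had log2 fold changes of -0.10 and -0.17 in DM-22 and of -0.29 and -0.11 in DM+SGLT2i. Ccnd1, the cyclin D1 that activates them, had 0.54 in DM-22 and 0.18 in DM+SGLT2i, and Ccnd3, another D-type cyclin, had 0.16 and 0.17.

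Of the 16 tested RB, E2F and MuvB genes, 5 were higher and 11 lower in DM-22 (median -0.15) and 7 and 9 in DM+SGLT2i (median -0.10). Leaving out C replicate 2 gave 3 and 13 (median -0.22) and 4 and 12 (median -0.10). Rb1, the retinoblastoma gene, had -0.11 in DM-22 and 0.19 in DM+SGLT2i. E2f1, an activator of S phase genes, was at 7.64, 2.80 and 2.67 CPM in C, 3.65 and 5.34 CPM in DM-22, and 7.50 and 6.61 CPM in DM+SGLT2i. E2f5 had 0.15 in DM-22 and -0.35 in DM+SGLT2i, and Tfdp1, a partner of the E2F proteins, had -0.36 and -0.16. Mybl2 had -1.15 in DM-22 (limma, unadjusted p = 0.0236, adjusted p = 0.804). Of the 20 tested E2F targets of proliferating cells, 14 were higher and 6 lower in DM-22 (median 0.07) and 18 higher and 2 lower in DM+SGLT2i (median 0.31). Leaving out C replicate 2 gave 19 higher and 1 lower in each, with medians of 0.37 and 0.56. Mki67, a marker of cycling cells, was at 6.34, 2.72 and 3.08 CPM in C, 3.10 and 3.08 CPM in DM-22, and 7.91 and 5.87 CPM in DM+SGLT2i. Pcna, the sliding clamp of DNA replication, had log2 fold changes of 0.16 in DM-22 and -0.11 in DM+SGLT2i, and Tk1 had -0.53 and -0.50. As with E2f1, both DM+SGLT2i libraries of Mki67 were above both DM-22 libraries. In DM+SGLT2i against DM-22, 0 genes of either list were called (limma), and the share of all genes separated in this way is not given here.

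All 23 genes of the p53 list were tested, and 16 were higher and 7 lower in DM-22 (median 0.22), as were 19 and 4 in DM+SGLT2i (median 0.24). Leaving out C replicate 2 gave 16 and 7 (median 0.37) and 18 and 5 (median 0.26). Trp53, the p53 gene, differed from C by -0.24 on the log2 scale in DM-22 and 0.07 in DM+SGLT2i. Mdm2, the ubiquitin ligase that p53 induces and that degrades it, had 0.22 and 0.43 (limma, adjusted p = 0.804 and 0.9997). Aen, a nuclease induced by p53, had 0.39 and 0.60, Sesn2 had 0.55 and 0.17, and Mdm4, an inhibitor of p53, had -1.26 and -0.49. Against C replicates 8 and 9 alone, 1 gene of the list rose in DM-22 (0.0143% of all genes were called there) and 2 in DM+SGLT2i (0.122%). Phlda3 rose in both (log2 fold change 2.23 and 2.30, limma, adjusted p = 0.0347 and 0.0181) and Eda2r in DM+SGLT2i (2.58, limma, adjusted p = 0.0490), with 1.79 in DM-22 (adjusted p = 0.0826). These genes were also the nearest in pattern to Cdkn1a and were named here after their values were seen. Phlda3 was at 31.6, 5.18 and 4.81 CPM in C, 24.2 and 26.3 CPM in DM-22, and 27.0 and 26.0 CPM in DM+SGLT2i. C replicate 2 was above all 4 diabetic libraries for Phlda3, whereas for Cdkn1a it lay within their range. With all 3 controls no gene of the list was called (limma).

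Of the 21 tested Polycomb proteins and other regulators of the Cdkn2a and Cdkn2b locus, 18 were lower in DM-22 (median -0.14) and 16 in DM+SGLT2i (median -0.14). With C replicate 2 left out, 18 were lower in each (medians -0.31 and -0.25). Bmi1 and Ezh2, core proteins of the Polycomb complexes, had 0.08 and -0.17 in DM-22. Cbx8 had -0.35 in DM-22 and -0.53 in DM+SGLT2i, Kdm6a had -0.42 and -0.13, Tbx3 had -0.05 and 0.46, and Ets1 had -0.28 and 0.05. Of the 10 tested parts of ubiquitin ligases that act on Cip/Kip proteins, 6 were higher in DM-22 (median 0.06) and 4 in DM+SGLT2i (median -0.01), and 6 and 5 with C replicate 2 left out (medians 0.13 and -0.01). Skp2, which marks p27 for degradation, was at 1.72, 3.26 and 4.36 CPM in C, 1.39 and 1.48 CPM in DM-22, and 2.49 and 1.90 CPM in DM+SGLT2i (log2 fold change -0.83 in DM-22, limma, adjusted p = 0.804). Cks1b, which helps Skp2 to bind p27, had 0.30 and 0.33 in the 2 diabetic groups, Ddb1 had 0.23 and 0.18, and Fbxl12 had -0.84 and -0.30. Of the 19 transcription factors of Cdkn1a other than p53, 6 were higher and 13 lower in DM-22 (median -0.09) and 10 and 9 in DM+SGLT2i (median 0.00073). With C replicate 2 left out these were 6 and 13 (median -0.13) and 8 and 11 (median -0.04). Sp1, which binds GC boxes, had -0.27 in DM-22 and -0.05 in DM+SGLT2i, Cebpa had 0.29 and 0.47, Smad4 had 0.28 and 0.00, and Foxo3 had 0.12 and 0.46. Of the 7 DNA methylation and demethylation enzymes, 7 were lower in DM-22 (median -0.41) and 4 in DM+SGLT2i (median -0.10), and 6 and 5 with C replicate 2 left out (medians -0.53 and -0.30). Dnmt1, the maintenance methyltransferase, had -0.25 in DM-22 and 0.16 in DM+SGLT2i (limma, adjusted p = 0.804 and 0.9997). Tet1 and Tet3, which oxidize methylcytosine, had -1.12 and -0.94 in DM-22 (limma, unadjusted p = 0.0218 and 0.0329, adjusted p = 0.804 for each).

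Of the 15 tested senescence-associated genes, 6 were higher and 9 lower in DM-22 (median -0.24), and 9 were higher and 6 lower in DM+SGLT2i (median 0.05). The direction in DM-22 turned when C replicate 2 was left out, with 9 higher and 6 lower (median 0.08), and DM+SGLT2i then had 9 higher and 6 lower (median 0.10). Lmnb1, whose loss accompanies senescence, had -0.47 in DM-22 and -0.17 in DM+SGLT2i, Mmp12 had -0.98 and -0.47, and Mmp13 had -0.11 and -0.72. Of the 10 tubular injury genes, 6 were higher in DM-22 (median 0.11) and 10 in DM+SGLT2i (median 0.87). Without C replicate 2, 10 were higher in each, with medians of 0.63 and 1.76. Krt20 had -0.25 and 1.93 in the 2 diabetic groups, Krt8 had 0.22 and 0.09, and Krt18 had 0.48 and 1.15. Of the 9 immediate early genes tested, 9 were lower in both groups (medians -1.57 and -1.65, and -2.21 and -2.30 without C replicate 2). Fos was at 331 CPM in C replicate 9 and at most 5.43 CPM elsewhere, and Jun at 563 CPM there and at most 65.5 CPM elsewhere. Of the 5 genes that peak with Arntl, 5 were higher in DM-22 (median 1.26), and of the 9 that peak opposite to it, 9 were lower (median -0.81). In DM+SGLT2i 4 of the 5 were higher (median 0.74) and 8 of the 9 lower (median -0.57). Leaving out C replicate 2 kept these counts, with medians of 1.24 and -0.998 in DM-22 and 0.80 and -0.78 in DM+SGLT2i. Arntl, a core gene of the circadian clock, was at 1.21, 1.77 and 1.62 CPM in C, 6.48 and 19.4 CPM in DM-22, and 5.07 and 8.69 CPM in DM+SGLT2i. All 4 diabetic libraries were above all 3 controls, C replicate 2 included, which was not so for any kinase inhibitor gene. Npas2, which peaks with it, had log2 fold changes of 1.47 and 1.36, Dbp had -1.85 and -1.26, Per2 had -0.95 and -1.09, and Ciart had -2.14 and -1.12 (limma, adjusted p = 0.804 in DM-22 and 0.9997 in DM+SGLT2i for each). The part of the hour of tissue collection in the values of the family was not tested.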

How the data were processed

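RNA sequencing of mouse kidney covered 7 libraries, grouped by their labels. The authors deposited log2 values of TMM-normalized CPM, with a floor of -4.66; per the submitters' processing notes, bcl2fastq, FastQC, Trim Galore, STAR, edgeR and the build mm10 were used. The read counter is not given in the sources used here. CPM were recovered by removing the floor, and 100% of values gave whole reads within 0.1. Gene positions and exon lengths are from GENCODE M21 (GRCm38).

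The members and gene lists were chosen with earlier results of these data known. Genes reaching 1 CPM in 2 or more libraries were fitted with limma 3.58.1 in R 4.3.3 (lmFit, eBayes with a trend) on log2(CPM + 0.5), the 3 groups together; fold changes are on this scale, which understates those of low genes. Two-sided p-values received the Benjamini-Hochberg adjustment over all genes tested, and 0.05 was the threshold. The script was tested on simulated data. Fits without a library kept the genes of the fit to all 7; this was settled after both that version and one with the filter applied again had been seen. Named genes were all members, the 2 genes of each list with the smallest unadjusted p in each diabetic group against C, a preset group of genes, the 5 closest in pattern to members ranging over 1 log2 unit, and chromosomal neighbours. Intervals and p-values measure the spread between these libraries.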

Additional observations from a re-analysis of the deposited data

How the results depend on the processing

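Groups held 2 or 3 libraries, and Cdkn2a had at most 14 reads outside C replicate 2. The number of members called was 0 in the fit to all 7 libraries described in the report. In DM+SGLT2i against C it was 1 without C replicate 2, 1 when the filter was then applied again and 3 (Cdkn1a, Cdkn1c and Cdkn2b) when only the groups compared were then fitted. In all diabetic against C it was 1 under library weights, and 1 in each of the same 3 settings without C replicate 2. With only the groups compared, Cdkn2b in DM+SGLT2i had an unadjusted p of 0.00461 and an adjusted p of 0.0446 (limma). Values that close arise only where many genes are called. The shares of all genes called in that fit and under library weights are not given here, so these counts are not particular to the family. The number of members called stayed at 0 without C replicate 2 when no filter was used or when voom was used. Combined settings without C replicate 2 were chosen after seeing the data. The causes were not tested.

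The sign of these log2 fold changes, none of which had passed, turned. In DM-22 against C, Cdkn1c became -0.030 under scaling by library total, and leaving out 1 library gave -0.34 to 0.037 for Cdkn1b, -0.34 to 0.46 for Cdkn1c and -1.43 to 2.61 for Cdkn2b. In DM+SGLT2i against C, Cdkn2d became 0.084 under library weights, -0.17 to 0.080 without 1 library, and, without C replicate 2, 0.064 with no filter, with only the groups compared or with the filter applied again, and 0.072 with voom. With no filter and C replicate 2 left out, Cdkn2a became 0.013 in DM-22, 0.38 in DM+SGLT2i and 0.19 in all diabetic libraries. In DM+SGLT2i against DM-22, Cdkn1a became 0.060 under library totals, Cdkn1b -0.020 under median-of-ratios scaling, and Cdkn2b 0.21 with a pseudocount of 0.1 CPM, 0.27 on the deposited values, 0.031 under library totals and 0.079 with voom (0.084 also without C replicate 2). Leaving out 1 library gave -0.66 to 0.56 for Cdkn1a, -0.18 to 0.20 for Cdkn1b, -0.25 to 0.55 for Cdkn1c, -2.05 to 2.00 for Cdkn2b and -0.036 to 0.25 for Cdkn2c. In all diabetic against C it gave -0.076 to 0.52 for Cdkn1c and -0.44 to 1.59 for Cdkn2b. Leaving out 1 library gave 0 to 1 members called in DM+SGLT2i against C and in all diabetic against C.

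The replicate block, fitted for DM+SGLT2i against DM-22, gave 0 members called and -0.05 for Cdkn1a. Same-numbered libraries shared only a number, with a correlation of their deviations over 13976 genes of -0.041.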
